A study of Mus musculus with 72 samples.

Results

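Mouse early secondary follicles given FSH21 at 1 ng/ml were compared with untreated follicles, both after 24 h of culture. FSH21 is the hypoglycosylated form of follicle-stimulating hormone (FSH), and the study asked how glycosylation forms of FSH alter follicle transcripts. The comparison used 6 of the 18 libraries of the series, chosen by treatment label and library number: the FSH21 libraries numbered 1, 5 and 6 and the untreated libraries with the same numbers. The other libraries held follicles given FSH24, the fully glycosylated form, at 1 ng/ml with these numbers, and follicles given either form at 10 ng/ml or no FSH with the numbers 2, 3 and 4. All groups shared one growth medium of α-MEM with GlutaMAX, serum albumin, fetuin and insulin-transferrin-selenium, so untreated follicles also received insulin. Strain, age of the mice and number of follicles per library are not given in the sources used here, and no allele or transgene is named. Replicates are labelled as biological, but no label ties a library to its own animal or culture. The p-values therefore rest on the spread from library to library, which may be technical in part.

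FSH is a pituitary glycoprotein hormone whose receptor sits on granulosa cells, the somatic cells around the oocyte. The receptor couples to the stimulatory G protein, cAMP and protein kinase A, and in granulosa cells it also feeds the PI3K-AKT and ERK pathways. Granulosa cells send ligands such as KIT ligand to the oocyte, reach it with thin projections through the zona pellucida, and are joined to it and to one another by gap junctions. In secondary follicles, which lack an antrum, FSH is known to promote granulosa growth and prepare steroid production.

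Libraries were close in depth. The 6 libraries held 20.5 to 22.3 M expected counts, with TMM scaling factors of 0.992 to 1.01, and all 18 held 17.5 to 22.5 M. Granulosa and oocyte markers were abundant. Inha, the inhibin alpha subunit, had 3730, 2800 and 2970 CPM (counts scaled to library size) in FSH21 libraries 1, 5 and 6, against 3670, 3020 and 2950 CPM in untreated libraries 1, 5 and 6. Gdf9, an oocyte growth factor, had 986, 1080 and 1090 CPM in FSH21 libraries and 960, 1080 and 1090 CPM in untreated libraries. Markers of other cell types were also present: 14 tested stroma and smooth muscle markers summed to 4056 to 4891 CPM in FSH21 libraries and 4630 to 5537 CPM in untreated libraries, and 10 endothelium markers to 108 to 119 CPM in FSH21 libraries and 99.9 to 127 CPM in untreated libraries. The sum of the 4 tested immune markers stayed at or below 5.58 CPM in FSH21 libraries and 5.47 CPM in untreated libraries, and none of the 6 red blood cell markers passed the count filter, with Hbb-bs at 0 counts in all 6 libraries. In bulk samples fewer cells of a type and less RNA per cell cannot be told apart.

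At 1 ng/ml, FSH21 changed the level of 24 genes of 18727 tested, which is 0.128% of them, at an adjusted p under 0.05 in edgeR's quasi-likelihood test. Of these, 17 rose (0.0908%) and 7 fell (0.0374%). The genes that rose include Kitl, the KIT ligand that granulosa cells make for the oocyte, the laminin receptor subunit Itga6, the protrusion myosin Myo7a and the glutathione transferases Gstm6 and Gstm7. Those that fell include the arrestin-domain adaptor Arrdc3, the growth regulator Myc and the sphingosine phosphate phosphatase Sgpp2. The changes were small: the median absolute log2 fold change of the 24 was 0.693, and 4 rises and 1 fall reached a 2-fold change. For all 24 genes the CPM of the FSH21 and untreated libraries did not overlap. Over all genes tested, 1264 were higher without overlap (6.75%) and 1166 lower without overlap (6.23%). At an unadjusted p under 0.05, 786 genes were higher (4.20%) and 584 lower (3.12%).

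**Figure D1:**
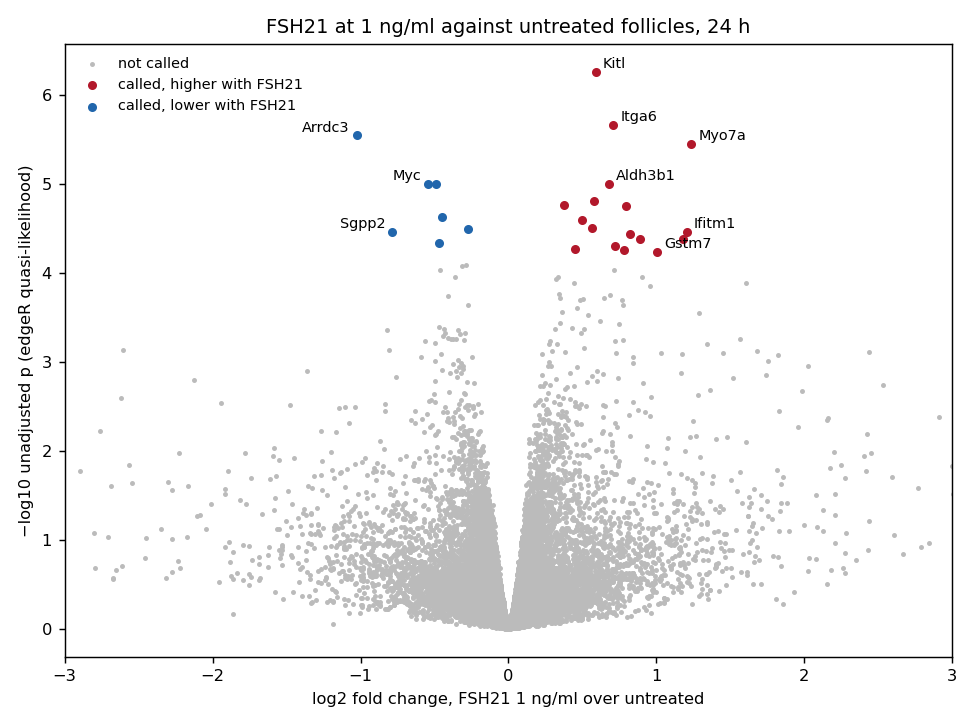
Log2 fold change of each tested gene with FSH21 at 1 ng/ml over untreated follicles (horizontal axis) and the −log10 of its unadjusted p in edgeR's quasi-likelihood test (vertical axis), with the 17 genes called higher in red, the 7 called lower in blue and the rest in grey. The called genes stand above the grey cloud at modest fold changes, with Kitl highest, and 59 tested genes with a log2 fold change beyond 3 in size lie outside the axis.

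The number of calls depended on single libraries. Without FSH21 number 5 or without untreated number 6 no gene was called by edgeR (1177 and 1078 genes at an unadjusted p under 0.05), without FSH21 number 1 there were 2 calls and without untreated number 1 there were 5. Without FSH21 number 6 there were 18 calls, and without untreated number 5 there were 21. A fit to the 6 libraries alone called 1 gene, Kitl, while DESeq2 on all libraries called 100 of 18721 genes, 24 of them shared with edgeR. With the library number as a block edgeR called 226 genes, the 24 among them, but no label ties the numbers to a shared culture. Each of the 24 calls was lost without at least 1 library.

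Kitl (GRCm38 chr10:100015630-100100416, plus strand) encodes KIT ligand, which granulosa cells present to the KIT receptor of the oocyte. Its level was 233, 250 and 228 CPM in FSH21 libraries 1, 5 and 6, against 157, 155 and 160 CPM in untreated libraries. Each FSH21 library was above every untreated one, and the spread within either group was small beside the gap. The means were 237 ± 11.2 CPM with FSH21 and 158 ± 2.67 CPM in untreated libraries (SD, n = 3 each; log2 fold change 0.59, SE 0.08, edgeR adjusted p = 0.0102). Without untreated number 6 the adjusted p was 0.0896, the highest with 1 library left out. Kit itself, an oocyte transcript, did not pass, with 153, 168 and 156 CPM in FSH21 libraries and 149, 168 and 167 CPM in untreated libraries. Among the 9 tested genes of KIT signalling and meiotic arrest edgeR called Kitl alone, DESeq2 called 2, and the median was 0.04. Gucy1a1, a soluble guanylate cyclase subunit, had 95.9, 77.8 and 63.2 CPM in FSH21 libraries and 57.6, 55.2 and 50.8 CPM in untreated libraries (0.53, SE 0.12, adjusted p = 0.113), without overlap. Nppc, the granulosa peptide that keeps the oocyte in meiotic arrest, was at 14.9, 13.7 and 13.5 CPM with FSH21 and 13, 10.3 and 7.98 CPM in untreated libraries (unadjusted p = 0.0348, adjusted p = 0.637).

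Genes of adhesion, the cell cortex and motor proteins were called in both directions. Itga6 (GRCm38 chr2:71745616-71858416, plus strand), the integrin alpha 6 subunit that binds laminin, had 1340, 1100 and 982 CPM in FSH21 libraries 1, 5 and 6, against 734, 749 and 608 CPM in untreated libraries (0.71, SE 0.10, edgeR adjusted p = 0.0163). The lowest FSH21 library lay above the highest untreated one by more than the range of the untreated group. Myo7a (chr7:98051060-98119524, minus strand), a myosin known from actin-based protrusions, was a low transcript at 11.1, 9.83 and 6.52 CPM with FSH21 and 4.08, 4.08 and 3.51 CPM in untreated libraries (1.23, SE 0.19, adjusted p = 0.0163). Its FSH21 values spread widely, yet none reached down to the untreated range. Myh14, a nonmuscle myosin heavy chain, rose by 0.89 (SE 0.17, adjusted p = 0.0411). Ank3, which encodes ankyrin-G, a linker of membrane proteins to the spectrin skeleton, fell to 148, 139 and 153 CPM with FSH21, against 201, 186 and 230 CPM in untreated libraries (−0.49, SE 0.08, adjusted p = 0.0265). Without untreated number 6 the adjusted p of these genes was 0.132 for Itga6 and Myo7a, 0.289 for Myh14 and 0.16 for Ank3.

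Around these genes the adhesion lists were mostly quiet. Itga6 was the only call among 17 integrin subunits, whose median was −0.08 (all genes tested, 0.00), and 7 subunits lay above 0 and 10 below. The summed level of the integrin list was 2898, 2759 and 2728 CPM in FSH21 libraries and 2453, 2482 and 2431 CPM in untreated libraries. Itga6, its most changed member, made up 1340, 1100 and 982 CPM of this with FSH21 and 734, 749 and 608 CPM in untreated libraries. The higher sum was therefore that of Itga6 and not of the list as a whole. Myo7a was the only call among 25 transzonal projection and filopodia genes (median 0.07). Myo10, a motor of filopodia, did not pass, at 746, 804 and 676 CPM with FSH21 and 638, 771 and 696 CPM in untreated libraries (0.08, SE 0.08, adjusted p = 0.929), and the 2 groups overlapped. Among 18 cadherins, desmosomal genes and nectins no gene was called by edgeR and DESeq2 called 1. At an unadjusted p under 0.05, 2 were higher and 0 lower, where 4.20% of all genes tested were higher and 3.12% lower. The desmosomal cadherin Dsc2 was nearest, with 20.8, 18.7 and 15.9 CPM in FSH21 libraries, against 11.5, 12.5 and 9.94 CPM in untreated libraries (0.71, SE 0.14, adjusted p = 0.0613), and these groups did not overlap. N-cadherin, Cdh2, was at 0.13 (SE 0.08) and E-cadherin, Cdh1, at −0.09 (SE 0.11), neither of them called.

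Gap junction genes and oocyte genes gave no calls. Of 10 tested connexins and partners, 0 were called by edgeR or DESeq2 and 1 had an unadjusted p under 0.05, Gjc3, which had at most 0.147 CPM in FSH21 libraries and at most 0.912 CPM in untreated ones. At that threshold 4.20% of all genes tested were higher and 3.12% lower. Gja1, the connexin of granulosa gap junctions, had 2450, 2270 and 2120 CPM with FSH21 and 2420, 2100 and 2200 CPM in untreated libraries. Gja4, the connexin on the oocyte side, had 141, 163 and 135 CPM with FSH21 and 136, 167 and 138 CPM in untreated libraries. The groups overlapped for both, and the log2 fold changes were 0.03 (SE 0.08) for Gja1 and −0.01 (SE 0.11) for Gja4. Of 26 oocyte genes, 0 were called by edgeR or DESeq2 and 0 had an unadjusted p under 0.05, with a median of −0.06 and 20 members below 0. Bmp15, the partner of Gdf9, was at 425, 490 and 400 CPM with FSH21 and 463, 441 and 401 CPM in untreated libraries.

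**Figure D2:**
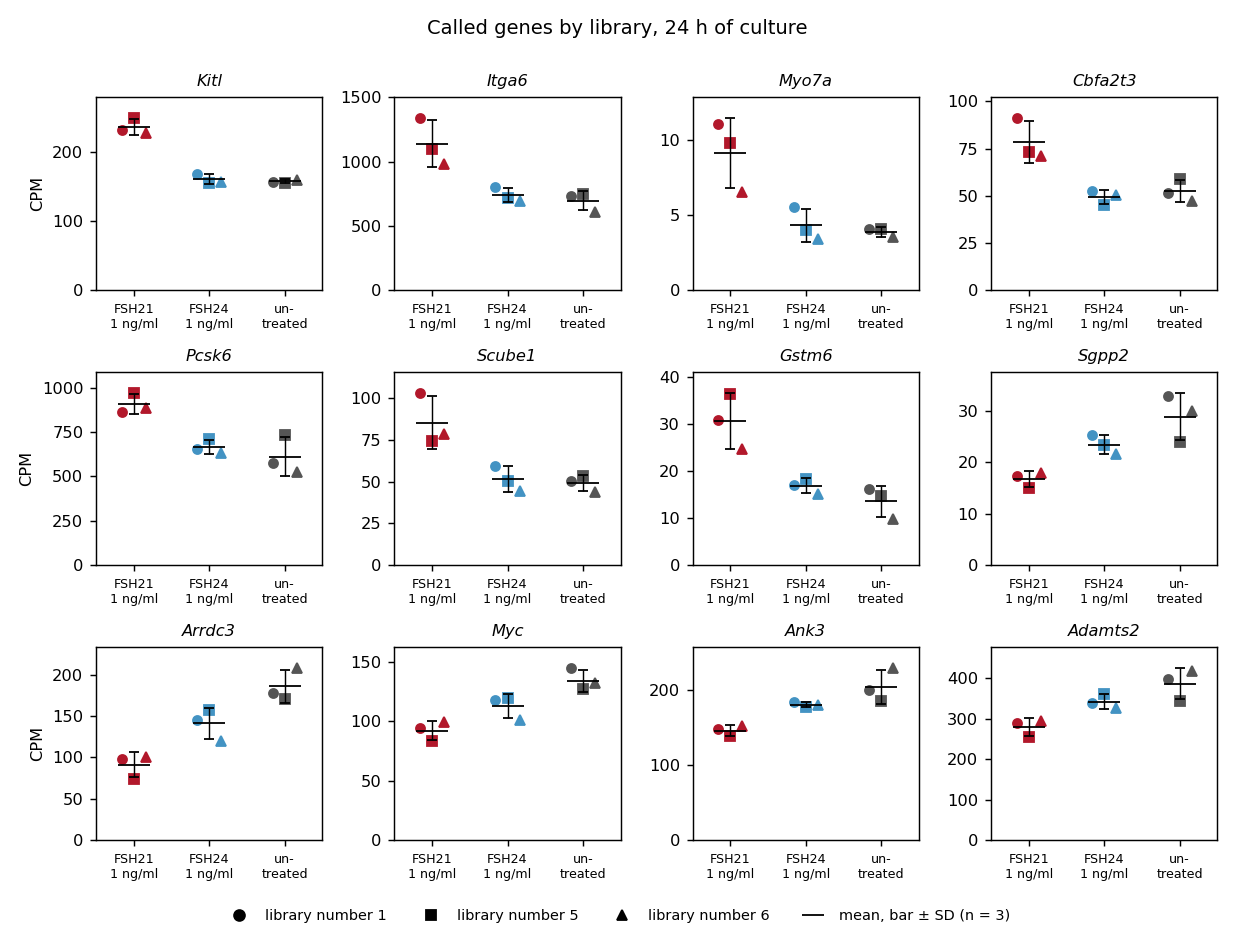
CPM of 12 called genes (one panel each, linear axis from 0) in the 3 libraries given FSH21 at 1 ng/ml, the 3 given FSH24 at 1 ng/ml and the 3 untreated libraries, with a marker per library number and the mean ± SD. In every panel the FSH21 libraries lie apart from the untreated ones, as for Kitl at 228 to 250 CPM with FSH21 and 155 to 160 CPM in untreated libraries.

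Regulators of transcription and signalling were called in both directions. Cbfa2t3 (chr8:122625141-122699109, minus strand), a transcriptional corepressor of the ETO family, had 91.3, 73.1 and 71.1 CPM in FSH21 libraries 1, 5 and 6, against 51.4, 59.0 and 47.4 CPM in untreated libraries (0.58, SE 0.10, edgeR adjusted p = 0.0327). Etv6, an ETS-family repressor, rose by 0.37 (SE 0.06, adjusted p = 0.0327), and Rasgrp3, which activates Ras-family GTPases, rose by 0.82 (SE 0.15, adjusted p = 0.0401). Both had groups without overlap. Myc (chr15:61985391-61990374, plus strand), a transcription factor of growth and ribosome production, fell to 94.2, 83.3 and 99.4 CPM with FSH21, against 145, 127 and 132 CPM in untreated libraries (−0.54, SE 0.09, adjusted p = 0.0265). Arrdc3 (chr13:80883384-80896042, plus strand), an adaptor that guides ubiquitin ligases to membrane receptors, had the largest fall among the 24, with 98.6, 73.9 and 101 CPM in FSH21 libraries, against 178, 171 and 208 CPM in untreated libraries (−1.03, SE 0.14, adjusted p = 0.0163). The highest FSH21 library was well below the lowest untreated one for both. Spsb1, a substrate adaptor of ubiquitin ligases, fell by 0.45 (SE 0.08, adjusted p = 0.0394), and Usp6nl, a GTPase-activating protein for Rab5, fell by 0.27 (SE 0.05, adjusted p = 0.0401). The call of Myc was lost without FSH21 number 5 (adjusted p = 0.154) and that of Arrdc3 without untreated number 6 (0.132), the highest values with 1 library left out. For Cbfa2t3 and Rasgrp3 the highest were 0.27 and 0.285 and for Usp6nl 0.289, all without untreated number 6, and for Etv6 and Spsb1 0.191 without FSH21 number 5.

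Transcripts of secreted and Golgi proteins were called as well. Pcsk6, a proprotein convertase that cleaves precursors of TGF-beta family ligands, had 863, 970 and 886 CPM in FSH21 libraries, against 577, 733 and 526 CPM in untreated libraries (0.57, SE 0.10, edgeR adjusted p = 0.0401). Scube1, a secreted and cell-surface protein with EGF-like repeats, had 103, 74.2 and 78.5 CPM with FSH21 and 50.2, 53.1 and 44.0 CPM in untreated libraries (0.80, SE 0.13, adjusted p = 0.0327). Gask1b, a Golgi-associated protein, rose by 0.78 (SE 0.14, adjusted p = 0.0443). Adamts2, which removes the amino propeptide of procollagens, fell to 289, 255 and 295 CPM, against 399, 344 and 418 CPM in untreated libraries (−0.47, SE 0.09, adjusted p = 0.0427). It was the only call of 23 ADAM, ADAMTS, MMP and TIMP genes (median −0.03). Of 26 collagens, laminins and basement membrane genes none was called by edgeR and DESeq2 called 1. At an unadjusted p under 0.05, 2 were higher and 0 lower, where 4.20% of all genes tested were higher and 3.12% lower. Col8a1, a short-chain collagen, had 85.6, 89.4 and 74.0 CPM with FSH21 and 43.9, 57.5 and 31.6 CPM in untreated libraries (0.90, SE 0.17, adjusted p = 0.0666). With 1 library left out the adjusted p of these 4 called genes reached 0.21 to 0.289, each highest without untreated number 6.

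Sterol genes leaned one way. Of 25 genes of cholesterol synthesis and sterol uptake, 1 was called by edgeR and DESeq2 called 2. All 25 members had a log2 fold change above 0, with a median of 0.20, where 51.1% of all genes tested lay above 0 around a median of 0.00. At an unadjusted p under 0.05, 14 were higher and 0 lower, where 4.20% of all genes tested were higher and 3.12% lower. Hmgcs1, an early synthase of the pathway, had 282, 327 and 296 CPM with FSH21 and 243, 290 and 256 CPM in untreated libraries (0.20, SE 0.07, adjusted p = 0.506), and the groups overlapped. The summed level of the list was 2211, 2349 and 2260 CPM in FSH21 libraries and 1901, 2020 and 1888 CPM in untreated libraries, so the groups did not overlap. With 3 libraries against 3 an exact permutation test of such a sum could not give a two-sided p below 0.1, and none is given.

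Among the genes called higher, a pair of glutathione transferases had the largest fold changes after Myo7a and Ifitm1. Gstm6 (chr3:107938847-107943749, minus strand) and its neighbour Gstm7 (chr3:107926334-107931817, minus strand) encode mu-class glutathione transferases. Gstm6 had 30.9, 36.5 and 24.7 CPM in FSH21 libraries, against 16.1, 14.8 and 9.90 CPM in untreated libraries (1.18, SE 0.21, edgeR adjusted p = 0.0411). Gstm7 had 24.4, 26.3 and 19.3 CPM with FSH21 and 10.0, 13.3 and 11.6 CPM in untreated libraries (1.00, SE 0.19, adjusted p = 0.0448). Genes of this class are related in sequence, so reads could be split between them, which was not measured. They were 2 of the 24 tested NRF2 and glutathione genes, of which 6 had an unadjusted p under 0.05 and all 6 were higher. Each of the 6 was a glutathione transferase. Over all genes tested, 4.20% were higher and 3.12% lower at that threshold. Gstm2 was at 600, 545 and 492 CPM with FSH21 and 371, 390 and 286 CPM in untreated libraries (0.65, SE 0.13, adjusted p = 0.0879). Aldh3b1, an aldehyde dehydrogenase, rose by 0.68 (SE 0.11, adjusted p = 0.0265), and Slc25a30, a mitochondrial carrier, rose by 0.45 (SE 0.09, adjusted p = 0.0443). Sgpp2, which dephosphorylates sphingosine 1-phosphate, fell to 17.3, 15.1 and 18 CPM, against 32.9, 23.9 and 30 CPM in untreated libraries (−0.78, SE 0.14, adjusted p = 0.0401). Ifitm1, an interferon-induced membrane protein with close paralogs, rose by 1.21 (SE 0.22, adjusted p = 0.0401), and Ccnjl, a cyclin J-like protein, by 0.72 (SE 0.14, adjusted p = 0.0443). Without untreated number 6 these adjusted p-values were 0.16 for Aldh3b1, 0.285 for Gstm6 and Sgpp2, and 0.289 for Gstm7, Slc25a30, Ifitm1 and Ccnjl.

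The promoter windows of these genes were read for response elements of the pathways that FSH is known to act on. Of the 24 called genes 20 had a window in the RefSeq table for GRCm38.p6, which spans 250 bases before to 50 bases after a start site, and some genes have several windows. On either strand, 0 of 20 genes held the full cAMP response element TGACGTCA, against 3.24% of the 12619 tested genes with a window. Its shorter form TGACG, which the full element contains, was held by 5 of 20 genes, or 25%, against 32.5%. The NR5A site CAAGGTCA was found in 1 gene, Aldh3b1 (5% against 1.51%), the FOXO site GTAAACA in 1, Ifitm1 (5% against 3.04%), and the sterol response element TCACNCCAC in 3, Gstm6, Gstm7 and Myo7a (15% against 1.45%). A gene with several windows had more chances to hold a match, and a match is only a description of the letters. The sterol element matches of Gstm6, Gstm7 and Myo7a lie inside the gene bounds given above, downstream of the gene's annotated start. Those of Gstm6 and Gstm7 sit in stretches of similar sequence, so they are not independent. The windows of Kitl and Cbfa2t3, the pair that also differed from FSH24, and of Aldh3b1 and Gstm7, which held rarer motifs, follow from 5′ to 3′ on the gene's strand with each motif in capitals. They lie at chr10:100015571-100015870 (plus) for Kitl, with no motif, chr8:122699060-122699359 (minus) for Cbfa2t3, with TGACG, chr19:3929729-3930028 (minus) for Aldh3b1, with TGACG in reverse complement and the NR5A site, and chr3:107931565-107931864 (minus) for Gstm7, with the sterol response element in reverse complement.
Kitl: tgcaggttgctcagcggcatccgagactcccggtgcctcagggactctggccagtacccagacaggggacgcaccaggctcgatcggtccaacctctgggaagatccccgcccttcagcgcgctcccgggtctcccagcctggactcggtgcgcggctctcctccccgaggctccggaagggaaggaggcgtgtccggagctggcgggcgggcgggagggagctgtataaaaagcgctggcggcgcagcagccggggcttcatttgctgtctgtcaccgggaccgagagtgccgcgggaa
Cbfa2t3: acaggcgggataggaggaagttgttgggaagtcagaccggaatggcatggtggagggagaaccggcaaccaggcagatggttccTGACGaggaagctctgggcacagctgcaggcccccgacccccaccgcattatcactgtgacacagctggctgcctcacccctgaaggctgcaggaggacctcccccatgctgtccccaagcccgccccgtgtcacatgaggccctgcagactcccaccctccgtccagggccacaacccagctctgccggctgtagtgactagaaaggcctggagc
Aldh3b1: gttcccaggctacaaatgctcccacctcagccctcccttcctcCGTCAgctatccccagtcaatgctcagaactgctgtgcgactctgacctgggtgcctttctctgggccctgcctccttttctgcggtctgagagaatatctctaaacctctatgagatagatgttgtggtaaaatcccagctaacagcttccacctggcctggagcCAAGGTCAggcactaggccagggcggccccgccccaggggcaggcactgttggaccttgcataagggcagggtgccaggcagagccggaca
Gstm7: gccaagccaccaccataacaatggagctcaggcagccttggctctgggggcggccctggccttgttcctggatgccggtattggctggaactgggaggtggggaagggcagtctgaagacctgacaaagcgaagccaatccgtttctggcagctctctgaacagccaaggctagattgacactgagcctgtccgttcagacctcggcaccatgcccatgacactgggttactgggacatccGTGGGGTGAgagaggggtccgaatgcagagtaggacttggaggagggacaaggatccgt

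Genes of ribosome production were lower as a group, without calls among the ribosomal proteins. Of 79 cytosolic ribosomal protein genes, 78 had a log2 fold change below 0, with a median of −0.23. At an unadjusted p under 0.05, 43 were lower and 0 higher, where 3.12% of all genes tested were lower and 4.20% higher. None was called by edgeR, and DESeq2 called 2. Their summed level was 22821, 19905 and 22877 CPM in FSH21 libraries and 27948, 24106 and 24789 CPM in untreated libraries, without overlap. Rps28, the lowest in p, had 204, 182 and 197 CPM with FSH21 and 244, 238 and 236 CPM in untreated libraries (−0.30, SE 0.07, adjusted p = 0.142). Of 24 ribosome biogenesis and MYC target genes, 23 lay below 0 (median −0.15), Myc was called, and 8 were lower at an unadjusted p under 0.05. The nucleolar GTPase Gnl3 had 46.8, 47.4 and 53.9 CPM with FSH21 and 71.6, 57.5 and 60.5 CPM in untreated libraries (−0.36, SE 0.09, adjusted p = 0.142). Ribosomal protein genes have many pseudogene copies. The 7 nuclear-retained RNAs, taken as a sign of RNA handling, had a median of 0.15 and summed to 1326, 1184 and 1136 CPM in FSH21 libraries and 1051, 997 and 1166 CPM in untreated libraries, with overlap. Their median was −0.004 without FSH21 number 1, and their part in the ribosomal values was not tested.

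Cell division genes leaned up without a call. Of 33 DNA replication and mitosis genes, 10 were higher and 2 lower at an unadjusted p under 0.05, where 4.20% of all genes tested were higher and 3.12% lower. None was called by edgeR or DESeq2, and the median was 0.11. Mki67, a marker of dividing cells, had 609, 487 and 516 CPM in FSH21 libraries, against 424, 363 and 469 CPM in untreated libraries (0.36, SE 0.12, adjusted p = 0.448). The groups did not overlap, with a narrow gap between 487 and 469 CPM. Of all 33, 22 lay above 0 and 11 below. At an unadjusted p under 0.05 the 2 lower members were the transcription factor E2f1 (−0.19) and the replication helicase subunit Mcm6 (−0.18), and the 10 higher members included the kinesin Kif11 (0.32) and the topoisomerase Top2a (0.30). Ccnd2, the D-type cyclin of granulosa growth, was at −0.04 (SE 0.11, adjusted p = 0.987), with 499, 585 and 549 CPM with FSH21 and 570, 567 and 540 CPM in untreated libraries.

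**Figure D3:**
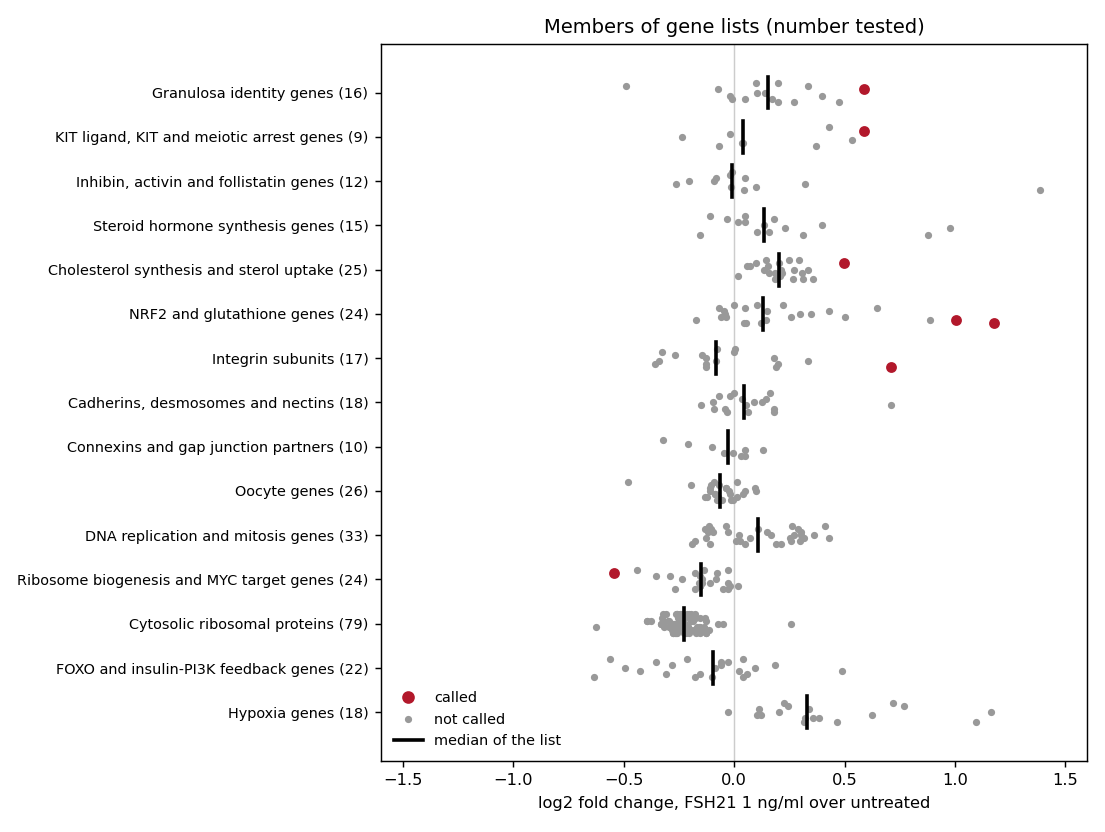
Log2 fold change with FSH21 at 1 ng/ml over untreated follicles for each tested member of 15 gene lists, with called genes in red, others in grey and the list's median as a black bar. Cholesterol genes lie to the right of 0 (median 0.20) and ribosomal protein genes to the left (median −0.23) with few or no called members, and 1 low-count connexin, Gjc3, lies outside the axis.

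Hormone, receptor and steroid genes of granulosa cells were mostly not called. Of 16 granulosa identity genes Kitl was called, and 5 in all were higher and 1 lower at an unadjusted p under 0.05 (4.20% and 3.12% of all genes tested). Their median was 0.15. The transcription factors Gata4 and Foxl2 were in that direction: Gata4 had 454, 439 and 402 CPM with FSH21 and 377, 352 and 343 CPM in untreated libraries (0.27, SE 0.07, adjusted p = 0.146), and Foxl2 had 484, 437 and 379 CPM with FSH21 and 364, 351 and 318 CPM in untreated libraries (0.33, SE 0.10, adjusted p = 0.293). Neither gene had overlapping groups. Fshr, the FSH receptor, had 24.4, 34.7 and 21.6 CPM in FSH21 libraries and 25.9, 31.1 and 18.4 CPM in untreated libraries (0.10, SE 0.25, adjusted p = 0.987). Lhcgr, the luteinizing hormone receptor, was low at 4.49, 1.40 and 1.37 CPM with FSH21 and 7.15, 0.937 and 2.23 CPM in untreated libraries, highest in number 1 of both groups. Of 24 genes of the FSH receptor and its cAMP-PKA transducers, 0 were called by edgeR or DESeq2 and 2 were lower at an unadjusted p under 0.05, and of 21 cAMP early-response genes 0 were called by either tool and 1 was higher.

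Steroid genes gave no call. Of 15, 1 was higher and 1 lower at an unadjusted p under 0.05 (4.20% and 3.12% of all genes tested). By edgeR or DESeq2 0 were called, and the median was 0.13. Cyp19a1, the aromatase that makes estradiol, had 17.5, 7.61 and 9.75 CPM with FSH21 and 11.4, 7.96 and 7.21 CPM in untreated libraries (0.40, SE 0.37, adjusted p = 0.926). Star carries cholesterol to the inner mitochondrial membrane, and it had 11.4, 8.56 and 10.4 CPM with FSH21 and 9.69, 6.56 and 8.21 CPM in untreated libraries (0.31, SE 0.24, adjusted p = 0.901). Both overlapped between groups. Amh, the hormone of growing follicles, was at 994, 997 and 735 CPM with FSH21 and 790, 907 and 683 CPM in untreated libraries (0.20, SE 0.18, adjusted p = 0.925). Inha at −0.02 (SE 0.15), the activin subunit Inhba at −0.01 (SE 0.14) and the activin-binding Fst at −0.20 (SE 0.22) did not pass either.

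A pair of genes with large fold changes that did not pass had a library that stood apart. Inhbb, the activin beta B subunit, had 695, 265 and 210 CPM in FSH21 libraries 1, 5 and 6, against 195, 151 and 102 CPM in untreated libraries (1.38, SE 0.51, edgeR adjusted p = 0.547). Igfbp5, which binds insulin-like growth factors, had 1490, 672 and 673 CPM with FSH21 and 546, 336 and 310 CPM in untreated libraries (1.25, SE 0.36, adjusted p = 0.348). For both the groups did not overlap and number 1 was highest in each group. Genes of hypoxia were high in the same libraries: 18 of them summed to 1586, 616 and 602 CPM in FSH21 libraries 1, 5 and 6 and to 947, 578 and 597 CPM in untreated libraries 1, 5 and 6. Vegfa, an angiogenic factor of that list, had 404, 44.5 and 33.4 CPM with FSH21 and 142, 33.4 and 40.5 CPM in untreated libraries. The hypoxia list had a median of 0.33 with 0 calls by edgeR or DESeq2 and 1 higher gene at an unadjusted p under 0.05, and its median was −0.24 without FSH21 number 1 and 0.20 to 0.53 without any other single library. Across the 18 alternative settings the log2 fold change lay between 0.67 and 1.68 for Inhbb and between 0.76 and 1.55 for Igfbp5. In the separate libraries at 10 ng/ml FSH21, edgeR called both genes higher. Inhbb was at 1.97 there (edgeR adjusted p = 0.0298) and Igfbp5 at 2.47 (edgeR adjusted p = 0.000867), and the hypoxia list had a median of 0.735. The part of the hypoxia difference in the values of Inhbb and Igfbp5 was not tested. Genes called higher differed in this, but FSH21 number 1 was the highest FSH21 library for most of them. These included Itga6, Myo7a, Myh14, Rasgrp3, Scube1, Ccnjl, Aldh3b1, Cbfa2t3 and Slc25a30. Number 5 was highest for Kitl, Gstm6, Gstm7, Gask1b, Pcsk6 and Etv6, and number 6 for Ifitm1. The part of the hypoxia difference in these genes was not tested either.

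**Figure D4:**
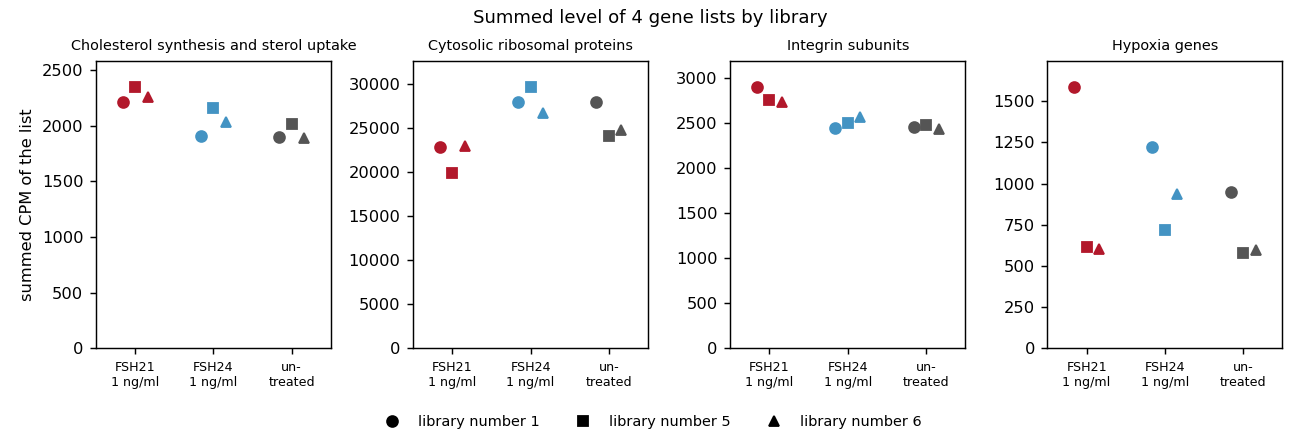
Summed CPM of 4 gene lists (one panel each, linear axis from 0) in the libraries given FSH21 at 1 ng/ml, those given FSH24 at 1 ng/ml and the untreated ones, with a marker per library number. FSH21 libraries lie above the untreated ones for cholesterol genes (2211 to 2349 CPM with FSH21 and 1888 to 2020 CPM in untreated libraries) and below them for ribosomal proteins. They also lie above for integrins, where the higher sum is that of Itga6. Hypoxia genes are highest in number 1, at 1586 CPM with FSH21 and 947 CPM in untreated libraries.

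Of 22 insulin and FOXO feedback genes, 0 were called by edgeR, DESeq2 called 2, and the median was −0.09. At an unadjusted p under 0.05, 5 were lower and 0 higher, where 3.12% of all genes tested were lower and 4.20% higher. Irs2, an adaptor of the insulin receptor, had 26.4, 32.8 and 34.1 CPM in FSH21 libraries, against 37.8, 46.3 and 53.6 CPM in untreated libraries (−0.56, SE 0.13, adjusted p = 0.142). Pik3ip1, an inhibitor of PI3K, had 40.2, 38.8 and 49.8 CPM with FSH21 and 53.4, 58.9 and 60.8 CPM in untreated libraries (−0.43, SE 0.10, adjusted p = 0.136). Neither overlapped between groups. Foxo1 was at 622, 538 and 584 CPM with FSH21 and 672, 625 and 725 CPM in untreated libraries (−0.21, SE 0.12, adjusted p = 0.799), and Igf1, a growth factor, was at 271, 312 and 297 CPM with FSH21 and 332, 326 and 334 CPM in untreated libraries (−0.17, SE 0.09, adjusted p = 0.709).

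Markers of other cell types gave no calls with FSH21 at 1 ng/ml. None of 11 theca, 14 stroma and smooth muscle, 10 endothelium, 4 immune and 7 surface epithelium markers was called by edgeR, and 2, 1, 0, 0 and 2 of them, in that order, had an unadjusted p under 0.05, with 1 surface epithelium marker called by DESeq2. Over all genes tested, 4.20% were higher and 3.12% lower at that threshold. Of the stroma and smooth muscle markers 12 lay below 0 and 2 above. Their median was −0.13, and −0.23 to −0.05 with 1 library left out. Of the surface epithelium markers 6 lay above 0 and 1 below. Their median was 1.05, and 0.025 to 1.636 with 1 library left out. Krt8, a keratin of simple epithelia, had 54.9, 51.0 and 44.8 CPM with FSH21 and 36.0, 39.1 and 30.8 CPM in untreated libraries (0.51, SE 0.12, adjusted p = 0.158), without overlap. It made up most of the surface epithelium sum of 60.5 to 66.1 CPM in FSH21 libraries and 40.2 to 48.9 CPM in untreated libraries, while the defining marker Upk1b had 5 counts over the 6 libraries and Krt7 had 52. The theca enzyme Cyp17a1 had 5.67, 2.17 and 1.67 CPM with FSH21 and 2.06, 1.69 and 1.09 CPM in untreated libraries, with number 1 highest in both groups.

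FSH24 at 1 ng/ml was the nearest comparison, given to follicles of the same numbers and set against the same untreated libraries. FSH24 against untreated gave 0 calls of 18727 in edgeR (0%), 1119 genes or 5.98% at an unadjusted p under 0.05, and 1 call in DESeq2. A difference in the number of calls does not show that the forms differ, and the direct contrast of FSH21 with FSH24 gave 2 calls (0.0107%), with 1770 genes or 9.45% at an unadjusted p under 0.05 and 14.9% with groups that did not overlap. Kitl was at 233, 250 and 228 CPM with FSH21 and 169, 156 and 157 CPM with FSH24, a log2 difference of 0.56 (SE 0.08, edgeR adjusted p = 0.0211). Cbfa2t3 was at 91.3, 73.1 and 71.1 CPM with FSH21 and 52.4, 45.0 and 50.4 CPM with FSH24 (0.67, SE 0.10, adjusted p = 0.0215). Both calls were lost without FSH21 number 1 or 5 or FSH24 number 5 or 6, where no gene was called, and in the fit to the 6 libraries of these groups. DESeq2 called 149 genes in this contrast, 2 of them shared with edgeR.

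Of the 24 genes called against untreated follicles, 23 had an unadjusted p under 0.05 against FSH24, but the FSH21 libraries that chose them are in both contrasts. Itga6 had 1340, 1100 and 982 CPM with FSH21 and 800, 720 and 696 CPM with FSH24 (0.62, SE 0.10, edgeR adjusted p = 0.0618). The groups did not overlap, and the difference did not pass. Rasgrp3 was the exception at an unadjusted p of 0.0691, with 11.1, 10.1 and 8.68 CPM with FSH21 and 9.37, 6.45 and 8.63 CPM with FSH24. Arrdc3 had 98.6, 73.9 and 101 CPM with FSH21 and 145, 157 and 120 CPM with FSH24, whose values also lay below the untreated 171 to 208 CPM (FSH24 against untreated −0.40, unadjusted p = 0.012). With FSH24 against untreated, 7 of the 24 genes had an unadjusted p under 0.05 in edgeR in the same direction as with FSH21. Over all genes tested this share was 5.98%, in either direction. The 7 include Rasgrp3 (0.54), Aldh3b1 (0.29) and Myc (−0.25), and the untreated libraries are in both comparisons.

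Between the forms, ribosomal protein genes had lower and cholesterol genes higher levels with FSH21, without a call. Their summed level was 22821, 19905 and 22877 CPM with FSH21 and 27882, 29605 and 26652 CPM with FSH24, and 70 of 79 were lower with FSH21 at an unadjusted p under 0.05 (median difference −0.37), with 0 called by edgeR. Cholesterol genes summed to 2211, 2349 and 2260 CPM with FSH21 and 1911, 2161 and 2035 CPM with FSH24, and 8 of 25 were higher with FSH21 at an unadjusted p under 0.05 (median 0.14), again with 0 called. For both lists the groups did not overlap. Over all genes tested, 9.45% had an unadjusted p under 0.05 in this contrast, in either direction. Against untreated libraries the ribosomal median was −0.23 with FSH21 and 0.13 with FSH24. Of 28 nuclear genes of the respiratory chain, 27 were also lower with FSH21 than with FSH24 (median −0.13). Among these, 7 were lower at an unadjusted p under 0.05 and 0 were called by edgeR. Against untreated libraries the respiratory chain median was −0.01 with FSH21 and 0.13 with FSH24. The nuclear-retained RNAs summed to 1326, 1184 and 1136 CPM with FSH21 and 957, 799 and 1081 CPM with FSH24, and their part in these differences was not tested.

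The 10 ng/ml libraries offered a comparison that shared no library with that at 1 ng/ml, although the dose and the set of library numbers cannot be told apart. FSH21 at 10 ng/ml called 1117 genes higher (5.96%) and 789 lower (4.21%) against its own untreated libraries. All 24 genes called at 1 ng/ml were called there in the same direction, and 23 of them had a larger change, with a median absolute log2 fold change of 0.693 at 1 ng/ml and 1.39 at 10 ng/ml. Kitl was at 383, 427 and 457 CPM in the libraries numbered 2, 3 and 4 with FSH21 at 10 ng/ml, against 121, 144 and 141 CPM in their untreated libraries (1.64, SE 0.08). The exception was Rasgrp3, at 0.82 (SE 0.15) with 1 ng/ml and 0.56 (SE 0.15) with 10 ng/ml, a dose difference of −0.26 that did not pass (adjusted p = 0.94). Etv6 was nearly level at 0.37 and 0.43.

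**Figure D5:**
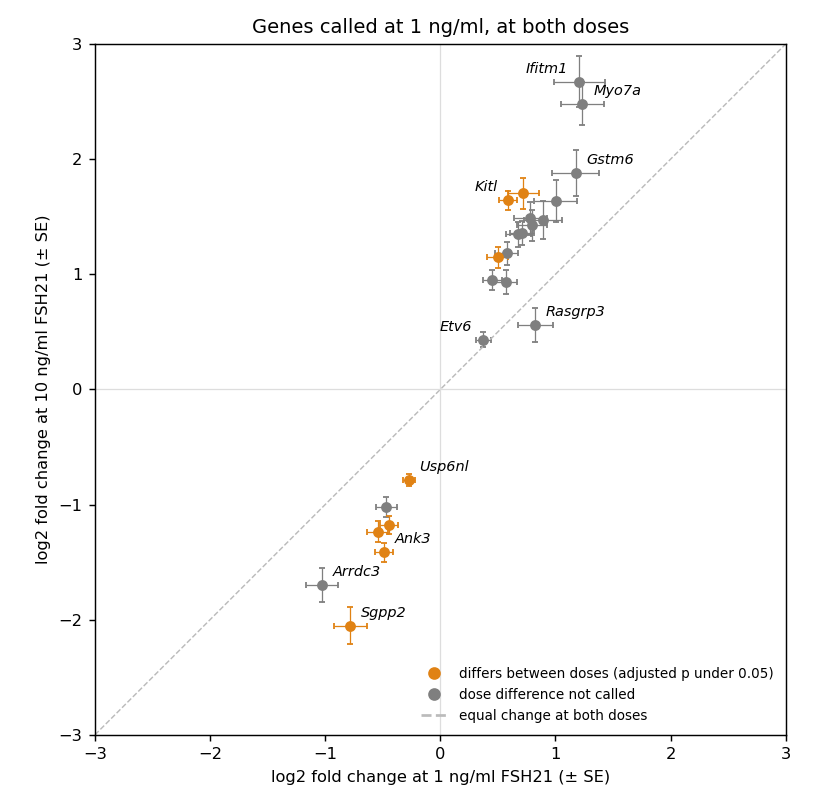
Log2 fold changes over untreated follicles with SE bars of the 24 genes called at 1 ng/ml FSH21, at 1 ng/ml (horizontal axis) and 10 ng/ml (vertical axis), with orange for the 8 genes whose change differed between the doses and a dashed line for equal changes. All points lie to the upper right or lower left of the origin, and Rasgrp3 alone lies between the dashed line and the horizontal axis.

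The change itself differed between the doses for 51 genes (0.272%), 19 with a higher and 32 with a lower effect at 10 ng/ml. Of the 24 genes, 8 were among them, all with the larger change at 10 ng/ml, including Kitl, Ccnjl, Sgpp2, Myc, Ank3, Spsb1 and Usp6nl. Kitl had a dose difference of 1.05 (edgeR adjusted p = 0.000165), Sgpp2 of −1.27 (adjusted p = 0.0127) and Ank3 of −0.93 (adjusted p = 0.000564). Some other genes with a difference had little or no measured response at 1 ng/ml. Lipg, an endothelial lipase, had 10.8, 9.83 and 9.12 CPM with FSH21 at 1 ng/ml and 12.9, 8.67 and 8.03 CPM in untreated libraries, against a rise of 1.08 at 10 ng/ml. The synaptic scaffold gene Mpp2 was at 0.02 (SE 0.18) with 1 ng/ml and 1.34 with 10 ng/ml, and the secreted glycoprotein Olfm1 at 0.23 (SE 0.15) with 1 ng/ml and 1.26 with 10 ng/ml. Igf1, at −0.17 with 1 ng/ml, fell by 0.88 at 10 ng/ml (dose difference −0.71, adjusted p = 0.0155). The count of dose differences varied with single libraries, from 20 to 68. In the 1 ng/ml set it was 20 without FSH21 number 6, 24 without untreated number 5, 30 without untreated number 1 and 32 without FSH21 number 5. It was 34 without untreated number 6 and rose to 68 without FSH21 number 1. In the 10 ng/ml set it was 22 without FSH21 number 3, 25 without FSH21 number 4, 27 without untreated number 3 and 22 without untreated number 4. It was 45 without FSH21 number 2 and 34 without untreated number 2.

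Several genes with a large dose difference had lower values at 1 ng/ml without passing edgeR's test there. Cnnm1, of the cyclin M family, had 18.4, 13.1 and 18.1 CPM with FSH21 at 1 ng/ml, against 27.1, 24.1 and 23.5 CPM in untreated libraries (−0.59, SE 0.15, edgeR adjusted p = 0.169). Sema3g, a secreted semaphorin, had 82.6, 56.9 and 65.1 CPM with FSH21, against 147, 108 and 107 CPM in untreated libraries (−0.82, SE 0.18, adjusted p = 0.135). Neither overlapped. Kcnq5, a potassium channel subunit (−0.76, SE 0.20), and Mycl, of the Myc family (−0.44, SE 0.15), also had groups without overlap, and Mug2, a protease inhibitor (−0.69, SE 0.24), had overlapping groups. DESeq2 called 3 of these 5 genes at 1 ng/ml, with adjusted p-values of 0.0315 for Cnnm1, 0.000668 for Sema3g and 0.0321 for Kcnq5. The log2 fold changes at 10 ng/ml were −2.52, −2.20, −2.30, −1.88 and −2.63 for Cnnm1, Sema3g, Kcnq5, Mycl and Mug2.

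Beyond the called genes, the many genes that changed at 10 ng/ml leaned the same way at 1 ng/ml. Of the 1117 that rose at 10 ng/ml, 1060 (94.9%) had a log2 fold change above 0 at 1 ng/ml, with a median of 0.192 at 1 ng/ml and 0.513 at 10 ng/ml. Of the 789 that fell, 757 (95.9%) were below 0, with a median of −0.18 at 1 ng/ml and −0.506 at 10 ng/ml. At 1 ng/ml, 40.7% of the risen and 37.5% of the fallen genes had an unadjusted p under 0.05 in the same direction, where 4.20% and 3.12% of all genes tested were higher and lower. The lean was present within each number: the medians for the risen genes were 0.24, 0.153 and 0.174 for FSH21 over untreated in numbers 1, 5 and 6, and those for the fallen genes were −0.23, −0.2 and −0.132. Among the 1906 genes, Pearson's r between the 2 doses was 0.805 and the slope of the 1 ng/ml change on the 10 ng/ml change was 0.388, while r over all 18727 genes was 0.136. These are descriptions across genes, which are not independent replicates. In the contrast of FSH21 with FSH24 at 1 ng/ml, 86.7% of the risen and 88.5% of the fallen genes had the same sign, with medians of 0.155 and −0.17.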

How the data were processed

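Polyadenylated RNA of cultured mouse follicles was sequenced with a NuGEN (Tecan) messenger RNA kit, per the labels' protocols. The authors deposited expected counts for each gene (RSEM output, going by the column names), with 1 column for each of 18 libraries and the 4 lanes of a library merged (72 lane samples). Per the submitters' processing notes, STAR 2.7, bcl2fastq and FastQC were used with the mm10 genome. The RSEM version, the annotation and the use of strand are not given in the sources used here, so reads of overlapping antisense genes cannot be told apart. Because 33.9% of values above 0 had decimals, all were rounded first.

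Genes that passed edgeR's filterByExpr (minimum count 10) were tested with edgeR 4.0.16 (quasi-likelihood, robust, TMM scaling) in R 4.3.3, with all 18 libraries in 6 groups without a block. Adjustment was by Benjamini and Hochberg over all 18727 tested genes, with calls at an adjusted p under 0.05. CPM are TMM-scaled. SE is the log2 fold change divided by the root of F. On simulated counts with known changes in this comparison (18368 genes), 75 of 100 genes changed 1.5-fold and 89 of 100 changed 2-fold were called, with 15 false calls. The changed genes were drawn only from those with a mean of at least 5 CPM. Noise was drawn for each gene on its own, without differences shared by a library, such as that of the hypoxia genes. These shares therefore do not cover low transcripts or such differences. The simulation also gave many more calls than the real comparison, and the cutoff of the Benjamini and Hochberg adjustment is looser when more genes are called. The shares may therefore be too high for the real comparison, where recovery was not measured. Positions come from GENCODE M21 (GRCm38), which held all 55 genes looked up there, and promoter windows from RefSeq (GRCm38.p6).

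The named genes are up to 14 in each direction among called genes with no overlap and a mean of at least 5 CPM, up to 5 in each direction for the form and dose contrasts, called members of 47 gene lists and 27 genes known in this field. Slc25a30 and Etv6, and list members below the threshold, were named after their values were seen. The members and lists were chosen with earlier results of these data known. Alternatives were limma-voom (limma 3.58.1), DESeq2 1.42.0, other scalings, filters, sample sets, a replicate block and leaving out each library. Results for some genes are not reported here.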

Additional observations from a re-analysis of the deposited data

Results flagged for a closer look

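The effect of FSH21 differed between 1 and 10 ng/ml for 51 genes by a test of the difference itself (edgeR, adjusted p under 0.05), and the differences below are log2, 10 ng/ml minus 1 ng/ml. Among genes called at 1 ng/ml they included 1.051 for Kitl, 0.982 for Ccnjl, -1.268 for Sgpp2, -0.926 for Ank3, -0.73 for Spsb1, -0.693 for Myc and -0.511 for Usp6nl. Among genes not called at 1 ng/ml they were 1.314 for Mpp2, 1.073 for Lipg, 1.031 for Olfm1, -1.931 for Mug2, -1.929 for Cnnm1, -1.539 for Kcnq5, -1.443 for Mycl, -1.371 for Sema3g and -0.707 for Igf1.

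FSH21 and FSH24 differed at 1 ng/ml by a direct test for Kitl, with a log2 difference of 0.559, and for Cbfa2t3, with 0.672, both higher with FSH21 in 3 of 3 libraries. Dose and library number set cannot be told apart in the dose differences.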

How the results depend on the processing

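Under RLE scaling, upper-quartile scaling, limma-voom and a minimum count of 30 the counts of calls stayed within 1.5 times of those reported for FSH21 at 1 ng/ml (26, 25, 17 and 27 calls). The main fit had no block for the library numbers, since no label ties a number to a shared culture. Deviations from the group means did correlate above 0 within each number. They correlated at 0.178, 0.157 and 0.065 between FSH21 and untreated libraries of numbers 1, 5 and 6. Differences shared within a number therefore stay in the spread of the main fit. Under a replicate block the calls were 226 for FSH21 against untreated, 177 for FSH21 against FSH24 and 229 for the dose difference, with 24, 2 and 49 of the reported genes among them. In fits to the 6 libraries of a contrast with the block they were 487, 19, 3211 (FSH21 at 10 ng/ml) and 7 (FSH24 at 1 ng/ml). Of the 9 libraries at 1 ng/ml and their untreated set, 8 correlated best with their own number.

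Without the block, the 9 libraries numbered 1, 5 and 6 gave 1 call for FSH21 against untreated and 1 against FSH24, and the 6 libraries alone gave 1 and 0. Testing every gene with a count gave 59, 65 and 102 calls for FSH21 against untreated, against FSH24 and for the dose difference, DESeq2 gave 100, 149 and 149, and DESeq2 gave 1 for FSH24 against untreated. Pooling all 6 untreated libraries gave 57 calls, and leaving out both libraries numbered 1, an alternative added after seeing the data, gave 0 (927 genes at an unadjusted p under 0.05 in edgeR). The cause of these differences was not tested.

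With 1 library left out, calls ranged from 0 to 21 for FSH21 against untreated, 0 to 7 against FSH24, 20 to 68 for the dose difference, 1262 to 1646 for FSH21 at 10 ng/ml and 0 to 1 for FSH24 at 1 ng/ml. A group left with 2 libraries is assumed to vary like the others. Depth limits low transcripts such as Lhcgr, Cyp17a1 and Gjc3.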
